A study of Mus musculus with 40 samples.

Results

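The genes described here are 7 genes of semaphorin signalling, *Nrp1*, *Sema4a*, *Sema4b*, *Sema4c*, *Sema4d*, *Sema7a* and *Plxnd1*, taken by symbol from the 21950 genes of an RNA-seq table of mouse T cells. All 7 had a row in each of 24 libraries, and 6 were expressed highly enough to be tested. Semaphorins are secreted, membrane-bound or lipid-anchored proteins that were first known as guidance cues of growing axons, and they signal through plexins, often with neuropilins as co-receptors. In the immune system, class 4 semaphorins and Sema7A act in contacts between T cells and antigen-presenting cells. Neuropilin-1, encoded by *Nrp1*, binds class 3 semaphorins, VEGF and, on Tregs, Sema4A, and its surface protein is widely used to mark Tregs of thymic origin in mice.

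The study compared regulatory T cells (Tregs) made in vitro with those formed in the thymus and with conventional T cells. Conventional CD4+ T cells (Tconvs) and thymic Tregs (tTregs, named nTreg in the labels) came from spleens of Foxp3-GFP reporter mice between 2 and 4 months old and were sequenced resting or activated. Induced Tregs (iTregs) were made from naive CD4+ T cells, reporter-negative, CD62L high and CD44 low, of mice 6 weeks old, over 4 days with 2 ng per ml TGF-β, 200 U per ml IL-2 and antibodies to CD3 (0.5 ug per ml) and CD28 (1 ug per ml). They were sorted on the Foxp3 reporter (GFP or RFP), rested with IL-2 for 1 day, and sequenced resting, after restimulation through CD3 and CD28, or after restimulation with an ORAI channel inhibitor or with cyclosporine A (CsA). ORAI channels carry store-operated calcium entry, and CsA blocks calcineurin and so the transcription factor NFAT. The ORAI inhibitor is labelled only by its target, and the paper names CM-4620. The inhibitor doses and the length of activation or restimulation before sequencing were not given for these libraries in the sources used here. Each of the 8 groups held 3 libraries. Nothing in the labels says that these came from separate animals or cultures, so that p-values measure only the spread between these libraries. Of these cells iTregs alone had been through the culture for induction. Whether Tconvs and tTregs were also rested in culture before RNA sequencing is not given in the sources used here. The mice differed in age as well, so that cell type, culture and age cannot be told apart in comparisons of iTregs with the other cells.

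Values are normalized counts, which are reads per gene divided by a size factor for each library. Reads on genes numbered 5256800 to 15685234 per library, and 3 reads, the smallest number taken here as detection, were worth between 2.12 and 5.45 normalized counts. The tTreg libraries were shallow, with at most 9893053 reads, and their replicates were among the least alike, with 13.8 to 39.4 times the variance that counting alone gives, against 2.79 to 17.6 in the other groups. Differences are on the scale of log2(normalized count + 1), from limma fits across all genes tested, with standard errors (SE) and Benjamini-Hochberg adjusted p-values. A gene was called at an adjusted p below 0.05 and a log2 difference above 0.5 in either direction, and "rose" and "fell" are used for called differences only. The fits shared libraries between comparisons, so that these are not independent of each other.

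The T cell markers *Cd3d*, *Cd3e*, *Cd3g* and *Cd4* were detected in every group. *Foxp3*, the transcription factor that defines Tregs, averaged 10.4 normalized counts in resting Tconvs, 7537 in resting tTregs and 1280 in resting iTregs. Markers of other cells were not equal between groups. Among B cell markers, *Ms4a1* stayed under 3 reads in every library, while the list summed to between 89.0 and 136 normalized counts in tTreg libraries and between 16.0 and 44.3 elsewhere. *Cd79b* carried the tTreg sums, whereas *Cd79a* averaged 8.02 in resting tTregs and 18.1 in resting Tconvs. Of 4 markers of plasmacytoid dendritic cells, which express *Nrp1*, *Siglech* and *Klk1* stayed under 3 reads in every library, and the list, carried by *Tcf4*, summed to between 39.4 and 105 in Tconvs, tTregs and resting iTregs and between 105 and 186 in the 3 restimulated iTreg groups. The remaining marker of that list, *Ly6d*, differed from *Tcf4*. It averaged 23.0 in activated Tconvs, 0.968 in resting Tconvs, 4.65 in resting tTregs and at most 2.13 in the other groups. A list of 3 natural killer cell markers summed to between 420 and 426 in resting Tconvs, was at 0 in all tTreg libraries, and lay between 15.3 and 124 elsewhere. It was carried by *Klrd1*, with a mean of 396 in resting Tconvs, and *Ncr1* and *Klrb1c* were at 0 in all iTreg libraries. A list of 7 myeloid and dendritic cell markers summed to at most 43.9, in resting Tconvs, and to between 1.35 and 18.9 elsewhere. A list of 3 endothelial markers, carried by *Pecam1* with *Cdh5* under 3 reads throughout, summed to between 3081 and 3129 in resting Tconvs, between 1306 and 2335 in activated Tconvs and tTregs, between 597 and 826 in resting iTregs and between 363 and 468 in the 3 restimulated iTreg groups. The third endothelial marker, *Kdr*, had no reads in Tconvs or tTregs. It averaged 1.80 in resting iTregs, 8.86 in restimulated iTregs, 1.81 with the ORAI inhibitor and 4.44 with CsA. A list of 2 markers of CD8 T cells summed to between 223 and 236 in resting Tconvs and to at most 178 elsewhere. *Cd8b1* carried this sum, with a mean of 229 in resting Tconvs, and *Cd8a* went the other way. *Cd8a* averaged 2.57 in resting Tconvs, 2.81 in activated Tconvs and between 6.63 and 9.65 in the Treg groups. The part of the B cell, plasmacytoid dendritic cell, natural killer cell, myeloid, endothelial and CD8 T cell markers in the differences below was not tested. In bulk libraries, fewer cells of a type and less RNA per cell cannot be told apart.

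All 7 genes are protein coding. On GRCm38, *Nrp1* (ENSMUSG00000025810) spans chr8:128358604-128503363 on the plus strand, *Sema4a* (ENSMUSG00000028064) chr3:88435959-88461182 on the minus strand, *Sema4b* (ENSMUSG00000030539) chr7:80186841-80226527 on the plus strand and *Sema4c* (ENSMUSG00000026121) chr1:36548639-36558349 on the minus strand. *Sema4d* (ENSMUSG00000021451) spans chr13:51685529-51793747 on the minus strand, *Sema7a* (ENSMUSG00000038264) chr9:57940112-57962865 on the plus strand and *Plxnd1* (ENSMUSG00000030123) chr6:115954811-115995005 on the minus strand. Small RNA genes shared 0.818% of the exon bases of *Nrp1* and 1.35% of those of *Sema4a*, and an antisense gene shared 7.27% of those of *Sema4c*, which the unstranded libraries cannot separate.

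The 250 bases before a RefSeq transcript start are shown for *Sema4a* and *Sema7a*, whose levels set iTregs furthest from tTregs and from resting Tconvs among the ligands. They are from GRCm38.p6, at chr3:88461183-88461432 on the minus strand for *Sema4a*, the outermost of its 4 starts, and at chr9:57939862-57940111 on the plus strand for *Sema7a*. Each is written 5′ to 3′ on the gene's strand, and capitals mark GGAAA, the core of NFAT sites, or its reverse complement TTTCC.
Sema4a: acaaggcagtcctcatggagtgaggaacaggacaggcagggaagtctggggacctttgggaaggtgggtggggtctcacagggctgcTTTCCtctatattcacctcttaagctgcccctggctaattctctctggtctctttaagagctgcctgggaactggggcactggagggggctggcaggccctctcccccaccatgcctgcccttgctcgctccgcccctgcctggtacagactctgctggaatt
Sema7a: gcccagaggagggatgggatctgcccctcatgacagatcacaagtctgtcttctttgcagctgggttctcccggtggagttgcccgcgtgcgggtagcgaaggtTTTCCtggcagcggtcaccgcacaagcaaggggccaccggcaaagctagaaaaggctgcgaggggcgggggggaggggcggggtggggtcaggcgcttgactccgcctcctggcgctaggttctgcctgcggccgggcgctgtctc
Each window held 1 match, in the reverse orientation. On either strand, GGAAA was in 55.6% of 32851 promoter windows of this length, so that a match does not set these genes apart. The windows upstream of *Nrp1* and *Plxnd1* held 1 match each as well. Neither printed window held TGANTCA, the AP-1 letters, or TGTTTAC, the forkhead letters, which were in 6.75% and 3.17% of all windows on either strand. No binding data were used here, and such matches are descriptions of the sequence only.

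**Figure D1:**
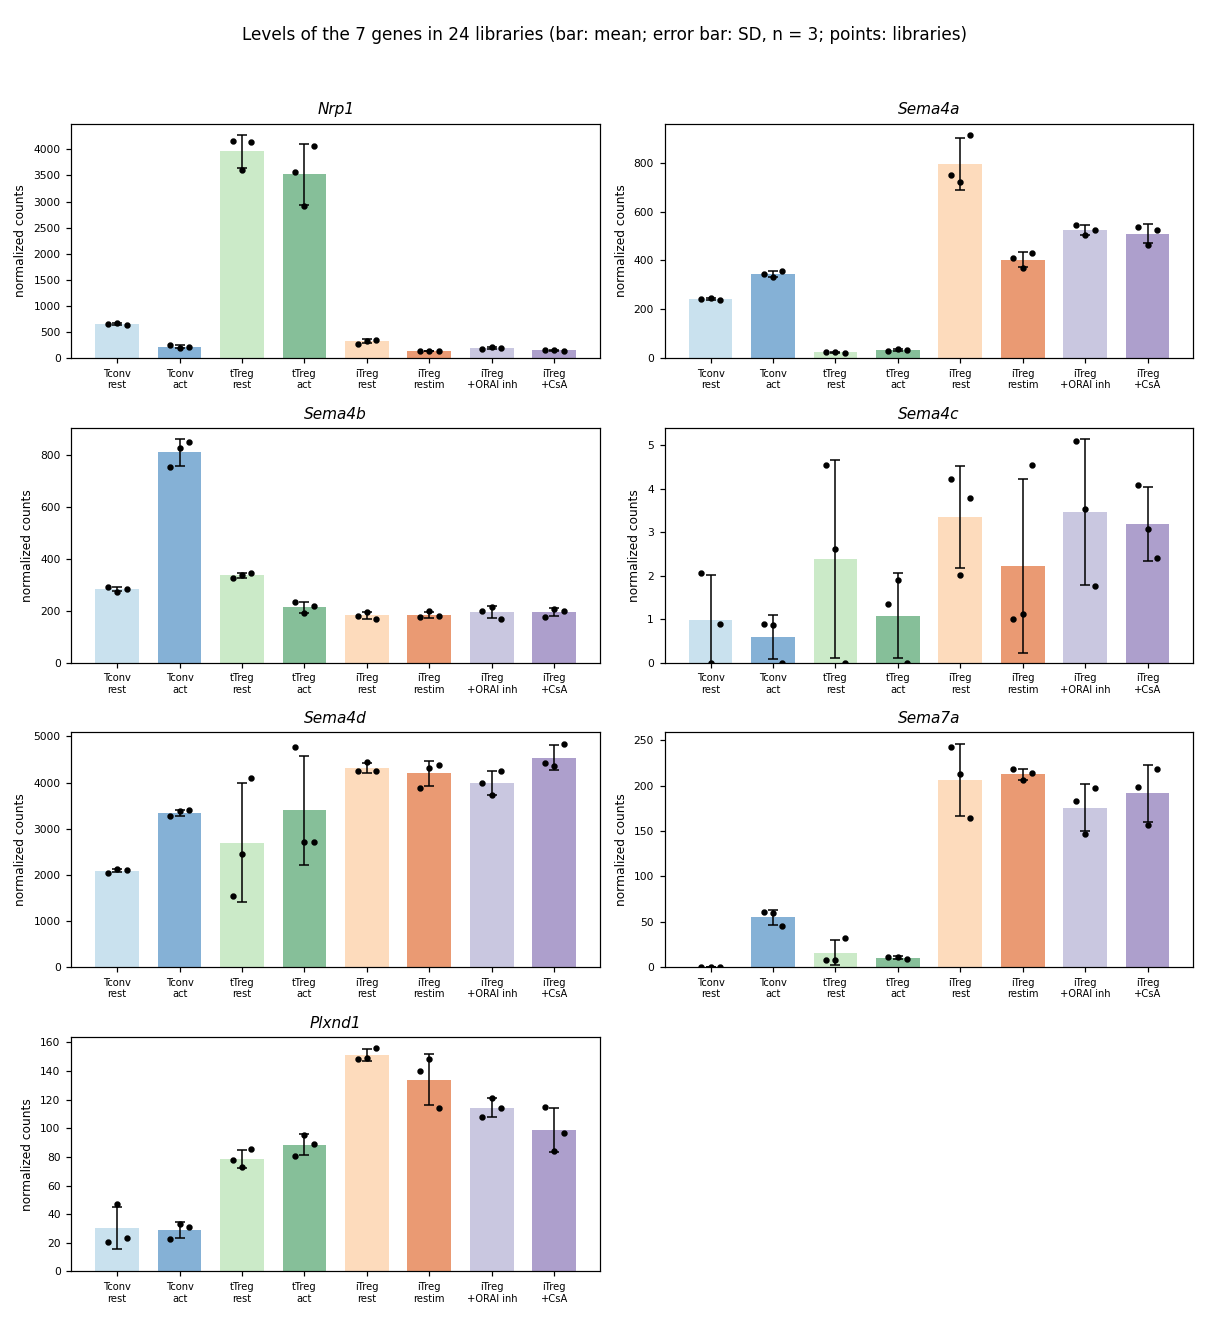
Normalized counts of the 7 genes (vertical axes, linear, a scale for each gene) in the 8 groups (horizontal axes; rest, resting; act, activated; restim, restimulated; ORAI inh, restimulated with the ORAI inhibitor; CsA, restimulated with CsA). Bars are means, error bars SD (n = 3) and points libraries; *Nrp1* stands between 2919 and 4154 in tTregs and at 671 or less elsewhere, whereas *Sema4a* is at most 36.9 in tTregs and at least 236 elsewhere.

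*Nrp1*, the co-receptor, was highest in tTregs, and it fell both when Tconvs were activated and when iTregs were restimulated. In resting tTregs its 3 libraries stood at 4154, 3602 and 4137 normalized counts, and in activated tTregs at 3567, 2919 and 4067. The tTreg states overlapped, and both stood above every other library. Resting Tconvs were at 649, 671 and 641, activated Tconvs at 247, 204 and 219, and resting iTregs at 278, 328 and 354. Restimulated iTregs were the lowest, at 146, 139 and 144. The 8 groups thus fell into an order in which tTregs came first, resting Tconvs next, and then resting iTregs, activated Tconvs and the restimulated iTreg groups. Neighbours in this order did not differ past the thresholds between the tTreg states, between activated Tconvs and ORAI-inhibited iTregs, or among the 3 restimulated iTreg groups.

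*Nrp1* was higher in tTregs than in Tconvs by a log2 difference of 2.60 (SE 0.12, adjusted p = 1.99e-10) at rest and 3.96 (SE 0.12, adjusted p = 3.77e-12) after activation. On activation it fell in Tconvs, by 1.55 on the log2 scale (SE 0.12, adjusted p = 4.22e-08). In tTregs the activation difference was -0.18 (95% interval -0.44 to 0.08, adjusted p = 0.262). The responses of the cell types differed, with an interaction of 1.37 (SE 0.17, adjusted p = 2.06e-05). Resting iTregs were lower than resting tTregs by a log2 difference of -3.63 (SE 0.12), which was the 165th lowest of the 11495 genes tested, and lower than resting Tconvs by -1.03 (SE 0.12). Against activated Tconvs they were higher by 0.51 (SE 0.12, adjusted p = 0.00227), a difference that fell to between 0.44 and 0.50, under the threshold, with other size factors or quantile normalization and without activated Tconv replicate 2 or resting iTreg replicate 2 or 3. Restimulated iTregs were lower than activated tTregs by -4.60 (SE 0.12) and lower than activated Tconvs by -0.63 (SE 0.12).

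The class 4 ligand *Sema4a*, a transmembrane semaphorin that binds plexins and Tim-2 as well as neuropilin-1, had nearly the opposite distribution. Resting tTregs were at 23.6, 26.0 and 21.6 normalized counts and activated tTregs at 31.0, 36.9 and 34.5, from 19 to 39 reads in each library. Resting Tconvs were at 243, 246 and 236, activated Tconvs at 343, 333 and 357, and resting iTregs at 749, 719 and 914. No library of one cell type overlapped with another cell type in these states. *Sema4a* was lower in tTregs than in Tconvs by -3.30 on the log2 scale both at rest (SE 0.12, adjusted p = 1.62e-11) and after activation (SE 0.12, adjusted p = 2.12e-11), the 105th and the 85th lowest differences of all genes tested. Resting iTregs were above resting tTregs by 5.00 (SE 0.12, adjusted p = 1.55e-13), above resting Tconvs by 1.71 (SE 0.12) and above activated Tconvs by 1.20 (SE 0.12). Restimulated iTregs, at 410, 368 and 429, were above activated tTregs by 3.52 (SE 0.10), while their difference from activated Tconvs was 0.22 (95% interval 0.01 to 0.43, adjusted p = 0.0692).

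*Sema4a* rose on activation by 0.51 (SE 0.12) in both Tconvs (adjusted p = 0.00215) and tTregs (adjusted p = 0.00575), just past the fold threshold. The Tconv difference dropped to 0.48 without activated Tconv replicate 3 and to 0.49 without resting Tconv replicate 3. The tTreg call was lost in the count tests, at 0.53 in both (adjusted p = 0.0662 in edgeR's quasi-likelihood test and 0.113 in DESeq2), with a pseudocount of 5 (0.45), and without activated tTreg replicate 2 (0.45), activated tTreg replicate 3 (0.50) or resting tTreg replicate 3 (0.44).

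*Sema4b*, another transmembrane class 4 semaphorin, was highest in activated Tconvs, and its activation response was opposite in Tconvs and tTregs. Its 3 libraries were at 291, 273 and 284 in resting Tconvs and at 752, 824 and 850 in activated ones. In tTregs they went from 325, 336 and 345 at rest to 232, 189 and 216. The states did not overlap in either cell type. The gene rose by 1.51 in Tconvs (SE 0.10, adjusted p = 5.66e-09) and fell by 0.66 in tTregs (SE 0.10, adjusted p = 1.71e-04), an interaction of -2.17 (SE 0.14, adjusted p = 2.33e-08). Resting tTregs and Tconvs differed by 0.25 (adjusted p = 0.0486), under the fold threshold. The 12 iTreg libraries all lay between 168 and 214, and among their 4 groups no neighbours in order differed past the thresholds. Resting iTregs were below resting Tconvs by -0.64 (SE 0.10), below resting tTregs by -0.88 (SE 0.10) and below activated Tconvs by -2.15 (SE 0.10, adjusted p = 1.76e-10), and restimulated iTregs were below activated Tconvs by -2.14 (SE 0.10).

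*Sema4c* was at the limit of detection. It had between 0 and 5 reads in each of the 24 libraries, with group means from 0.587 normalized counts in activated Tconvs to 3.46 in ORAI-inhibited iTregs. It did not pass the filter and was not tested, and a difference between groups was not detectable at this depth.

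*Sema4d*, which encodes CD100, a semaphorin of resting and activated T cells that binds plexins B1 and B2 and CD72, had the highest level per length of the 7 genes in the Tconv and iTreg groups. Its mean was 272 normalized counts per kb of exon in resting Tconvs, 436 in activated Tconvs, 443 in activated tTregs and between 520 and 592 in the iTreg groups. In resting tTregs it was 351 ± 168 (SD, n = 3) per kb, beside 405 ± 32.1 for *Nrp1*. The order of these genes in tTregs depended on 1 library in each state, a check chosen after the values were seen. Without activated tTreg replicate 1 *Sema4d* was at 354 per kb and *Nrp1* at 357, and without resting tTreg replicate 1 they were at 426 and 395. Resting Tconvs were at 2049, 2120 and 2097 normalized counts and activated Tconvs at 3265, 3377 and 3395, with no overlap. The tTreg libraries spread widely, with 1551, 2450 and 4094 at rest and 4764, 2720 and 2721 after activation, so that the states overlapped. Resting iTregs were close to each other at 4242, 4447 and 4259.

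The *Sema4d* calls depended on which libraries were fitted. It rose in activated Tconvs by 0.68 (SE 0.26, adjusted p = 0.0348), with the SE shared over all groups of the fit. With quantile normalization it was 0.62 (adjusted p = 0.0749), and without any one of the 6 Tconv libraries it was between 0.67 and 0.70 (adjusted p between 0.0657 and 0.0782). In a fit of only the Tconv libraries it was 0.68 (SE 0.04, adjusted p = 4.00e-08). In tTregs the activation difference was 0.39 (95% interval -0.17 to 0.95), and it was 0.75 (adjusted p = 0.0135) without resting tTreg replicate 3. Resting tTregs and Tconvs differed by 0.26 (95% interval -0.30 to 0.82), and by 0.60 (adjusted p = 0.0285) without resting tTreg replicate 1. Resting iTregs were higher than resting Tconvs by 1.05 (SE 0.26, adjusted p = 0.00215) and higher than resting tTregs by 0.79 (SE 0.26, adjusted p = 0.0134). The latter call was lost without resting tTreg replicate 1, at 0.45 (adjusted p = 0.0716), and with quantile normalization, at 0.50 (adjusted p = 0.130). Restimulated iTregs were 0.35 above activated tTregs (95% interval -0.11 to 0.81), and 0.62 above them (adjusted p = 0.0131) without activated tTreg replicate 1.

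*Sema7a*, a lipid-anchored semaphorin of activated T cells that binds plexin C1 and the α1β1 integrin, was not detected in resting Tconvs and was highest in iTregs. Its reads were 0 in all 3 resting Tconv libraries. Activated Tconvs were at 60.2, 59.5 and 45.3 normalized counts, resting tTregs at 8.16, 7.79 and 31.9, and activated tTregs at 10.8, 11.4 and 9.08. Resting iTregs stood at 243, 213 and 164. The iTreg libraries were above all others, and among these 5 groups only the tTreg states overlapped. Against the value of 3 reads per library in resting Tconvs, 2.84 normalized counts on average, *Sema7a* was at least 19.3-fold higher in activated Tconvs, at least 5.61-fold higher in resting tTregs and at least 72.7-fold higher in resting iTregs. The bound for resting tTregs was 2.80 without resting tTreg replicate 3, an alternative chosen after the values were seen.

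In the fits, *Sema7a* was called in each of these comparisons with resting Tconvs, with adjusted p-values of 1.02e-08, 1.52e-06 and 1.80e-10. In tTregs the activation difference was -0.28 (95% interval -1.13 to 0.56, adjusted p = 0.613), from 5 to 28 reads in each library, and it was 0.34 (adjusted p = 0.327) without resting tTreg replicate 3. The interaction was called (adjusted p = 1.01e-06), though its fitted size, -6.08, depends on the pseudocount because resting Tconvs were at 0. Activated tTregs were lower than activated Tconvs by -2.29 (SE 0.40, adjusted p = 1.61e-04). Resting iTregs were higher than resting tTregs by 3.89 (SE 0.40, adjusted p = 4.29e-07) and higher than activated Tconvs by 1.88 (SE 0.40, adjusted p = 9.60e-04). Restimulated iTregs were higher than activated tTregs by 4.23 (SE 0.33) and higher than activated Tconvs by 1.94 (SE 0.33).

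*Plxnd1*, the plexin that serves as receptor for Sema3E and also binds class 4 semaphorins, was higher in both kinds of Treg than in Tconvs. Resting Tconvs were at 20.6, 46.9 and 23.7 and activated Tconvs at 22.4, 32.8 and 31.1. Resting tTregs were at 78.0, 72.7 and 85.4, activated tTregs at 80.8, 95.6 and 89.0, and resting iTregs at 148, 149 and 156. The 3 cell types did not overlap, whereas the resting and activated states overlapped in both Tconvs and tTregs. It was higher in tTregs than in Tconvs by 1.43 at rest (SE 0.25, adjusted p = 1.93e-04) and 1.60 after activation (SE 0.25, adjusted p = 5.29e-05). The 95% interval of the activation difference was -0.53 to 0.52 in Tconvs, and the difference was 0.17 (95% interval -0.36 to 0.69) in tTregs. Resting iTregs exceeded resting tTregs by 0.93 (SE 0.25, adjusted p = 0.00315) and Tconvs in either state by 2.37 (SE 0.25). Restimulated iTregs exceeded activated Tconvs by 2.19 (SE 0.22) and activated tTregs by 0.59 (SE 0.22, adjusted p = 0.0183). This last call was lost with quantile normalization (0.49) and without activated tTreg replicate 1 or restimulated iTreg replicate 1 or 2, with adjusted p-values from 0.0520 to 0.0673.

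**Figure D2:**
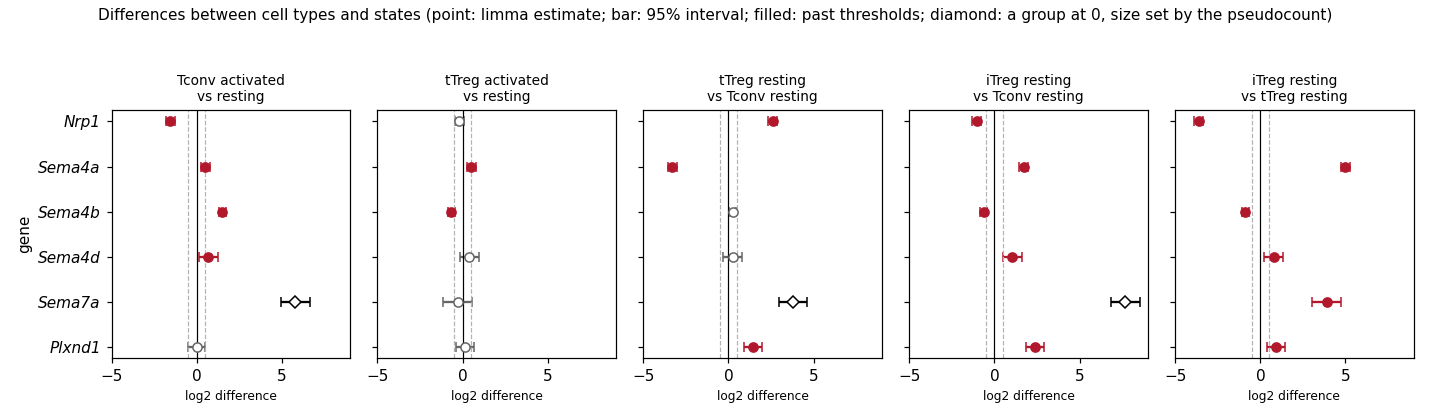
Log2 differences (horizontal axes) of the 6 tested genes (rows) in 5 comparisons, from limma on log2(normalized count + 1). Points are estimates and bars 95% intervals, red filled circles passed both thresholds, open circles did not, dashed lines mark the fold threshold of 0.5, and diamonds mark *Sema7a* against resting Tconvs at 0, where the size is set by the pseudocount; *Nrp1* is at -3.63 and *Sema4a* at 5.00 in iTregs against tTregs.

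Counted together, 5 of the 6 tested genes were called on activation in Tconvs, where 50.2% of all genes tested were called. On activation in tTregs 2 were called, beside 21.9% of all genes. The activation responses differed for 3, *Nrp1*, *Sema4b* and *Sema7a*, beside 34.7% of all genes. Between tTregs and Tconvs 4 were called at rest and 5 after activation, beside 38.6% and 48.2%. All 6 were called between resting iTregs and resting Tconvs and between resting iTregs and resting tTregs, beside 63.6% and 63.4%, and 5 between resting iTregs and activated Tconvs, beside 41.6%. Restimulated iTregs differed in 4 from activated tTregs and in 4 from activated Tconvs, beside 59.3% and 44.3%. With so many of all genes called, these counts say little of the 7 genes as a set, and the sizes above carry the description.

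Restimulation of iTregs lowered *Nrp1* and *Sema4a*, the semaphorin receptor and one of its ligands, and left the other 4 tested genes under the thresholds. *Nrp1* fell by 1.15 on the log2 scale (SE 0.11, adjusted p = 2.99e-06), from between 278 and 354 to between 139 and 146 normalized counts, the 148th lowest of 11105 differences. *Sema4a* fell by 0.98 (SE 0.09, adjusted p = 2.55e-06), from between 719 and 914 to between 368 and 429, the 221st lowest. The resting and restimulated libraries did not overlap for either gene. These were 2 of 6 tested genes called, both lower, beside 12.8% of all genes called and 6.13% called lower. *Sema4b* differed by 0.01 (95% interval -0.22 to 0.24), *Sema4d* by -0.04 (-0.18 to 0.10), *Sema7a* by 0.06 (-0.27 to 0.39) and *Plxnd1* by -0.18 (-0.46 to 0.11). Restimulated iTregs were at 3888, 4321 and 4385 for *Sema4d* and at 218, 206 and 214 for *Sema7a*, within or next to the range of resting iTregs.

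With the ORAI inhibitor, *Sema4a* and *Nrp1* stood between resting and restimulated iTregs. *Sema4a* was at 544, 503 and 526 normalized counts and *Nrp1* at 168, 220 and 190, with no overlap with either the resting or the restimulated libraries. Against restimulation alone, *Sema4a* was higher by 0.39 (SE 0.09, 95% interval 0.18 to 0.59, adjusted p = 0.0212) and *Nrp1* by 0.42 (SE 0.11, 95% interval 0.18 to 0.66, adjusted p = 0.0336), both below the fold threshold. None of the 6 tested genes was called by limma, by edgeR or by DESeq2 in this comparison, beside 3.30% of all genes called, while 2 had an unadjusted p under 0.05 in limma. *Nrp1* was called, at 0.51 (adjusted p = 0.0234), without ORAI inhibitor replicate 1. Both genes stayed below resting iTregs, *Nrp1* by -0.73 (SE 0.11, adjusted p = 4.41e-04) and *Sema4a* by -0.59 (SE 0.09, adjusted p = 5.50e-04), 2 of 6 called, both lower, beside 7.10% of all genes called and 3.13% called lower. The latter was -0.48, under the threshold, without resting iTreg replicate 3.

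With CsA, *Sema4a* was at 537, 464 and 526, again between the resting and restimulated libraries with no overlap, whereas *Nrp1*, at 158, 149 and 144, overlapped with restimulated iTregs. Against restimulation alone the difference was 0.34 (SE 0.09, 95% interval 0.14 to 0.54, adjusted p = 0.0396) for *Sema4a* and 0.07 (95% interval -0.17 to 0.31) for *Nrp1*. No tested gene was called by limma, edgeR or DESeq2, beside 2.92% of all genes, and 2 had an unadjusted p under 0.05 in limma, *Sema4a* and *Plxnd1*. Against resting iTregs 3 of 6 were called, all lower, beside 9.43% of all genes called and 4.24% called lower, with *Nrp1* at -1.08 (SE 0.11, adjusted p = 9.33e-06), *Sema4a* at -0.64 (SE 0.09, adjusted p = 2.33e-04) and *Plxnd1* at -0.62 (SE 0.13, adjusted p = 0.00350).

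*Plxnd1* was not higher with either inhibitor than in restimulation alone. Its libraries were at 140, 148 and 114 in restimulated iTregs, at 108, 121 and 114 with the ORAI inhibitor and at 115, 84.2 and 96.8 with CsA. All 6 inhibitor libraries were below the 3 resting ones, and they overlapped with restimulated iTregs. The difference between CsA and restimulation alone was -0.44 (SE 0.13, adjusted p = 0.0522), and it was called without CsA replicate 1 (-0.56, adjusted p = 0.0311) or without restimulated replicate 3 (-0.55, adjusted p = 0.0349). The call against resting iTregs was lost when all 24 libraries were fitted together (adjusted p = 0.0615). *Sema4b*, *Sema4d* and *Sema7a* showed no called difference between any of the iTreg groups.

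The inhibitors act at different steps of one path, and none of the 6 tested genes was called between them by limma, edgeR or DESeq2, beside 0.360% of all genes, though 2 had an unadjusted p under 0.05 in limma. *Nrp1* was higher with the ORAI inhibitor by 0.35 (SE 0.11, 95% interval 0.11 to 0.59, adjusted p = 0.241), without overlap between the libraries. *Sema4d* was lower by -0.19 (SE 0.06, 95% interval -0.32 to -0.05, adjusted p = 0.273). For *Sema4a* the difference was 0.05 (95% interval -0.16 to 0.25). The doses are not known here, so that a difference of dose and of target cannot be told apart.

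**Figure D3:**
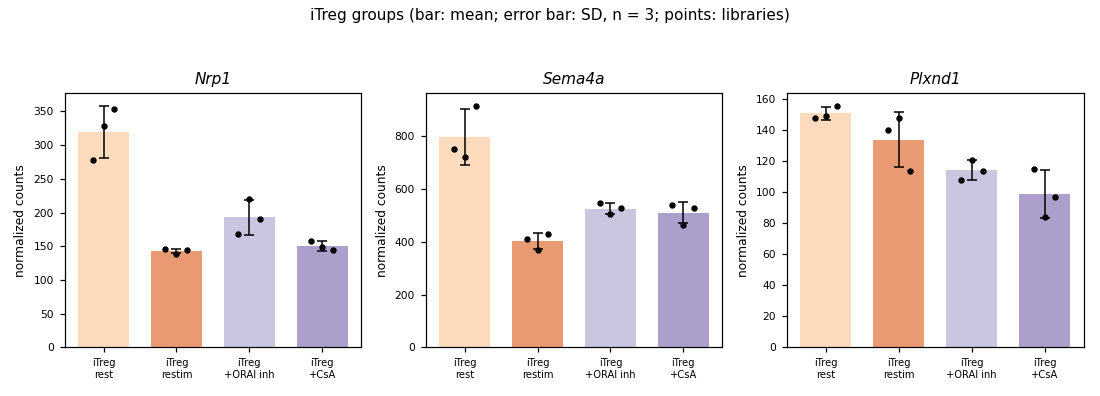
Normalized counts (vertical axes, linear) of *Nrp1*, *Sema4a* and *Plxnd1* in resting iTregs, restimulated iTregs (restim) and iTregs restimulated with the ORAI inhibitor or with CsA (horizontal axes). Bars are means, error bars SD (n = 3) and points libraries; *Sema4a* with either inhibitor lies between 464 and 544, above the 368 to 429 of restimulation alone and below the 719 to 914 of resting cells.

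Among other receptors, 6 of 9 listed genes (the other plexins and *Nrp2*) were tested. Of these, *Nrp2*, at most 2.69 normalized counts in Tconvs, and *Plxnb2*, at most 7.20, passed the filter only through Treg libraries. Their tests against Tconvs are therefore not given. *Plxna1*, *Plxna3* and *Plxnc1* were higher in resting tTregs than in resting Tconvs, and *Plxnb1* was not called. After activation *Plxna1*, *Plxna3*, *Plxnb1* and *Plxnc1* were higher in tTregs. The same genes were higher in resting iTregs than in Tconvs in either state. Of all genes, 38.6% were called in either direction between resting tTregs and Tconvs, 48.2% between the activated cells, and 63.6% and 41.6% between resting iTregs and resting or activated Tconvs. With *Nrp2* and *Plxnb2* included, the median log2 difference of the 6 was 1.46 between resting tTregs and Tconvs. Between resting iTregs and Tconvs it was 1.53. Over all genes tested these medians were -0.02 and 0.02. *Nrp2*, the second neuropilin, lay between 0 and 1.88 normalized counts in resting Tconvs and between 38.1 and 57.1 in resting tTregs. *Plxnb2*, a receptor of Sema4D and other class 4 semaphorins, lay between 0 and 7.20 in resting Tconvs, between 22.1 and 27.2 in resting tTregs and between 56.1 and 60.1 in resting iTregs. *Plxnc1*, the plexin that binds Sema7A, fell by 0.83 on activation of Tconvs (SE 0.18, adjusted p = 8.50e-04), and this response differed from that of tTregs by 0.90 (SE 0.25, adjusted p = 0.0106). *Plxna1* rose by 0.83 in activated Tconvs (SE 0.22, adjusted p = 0.00419) and *Plxna3* by 0.67 in activated tTregs (SE 0.20, adjusted p = 0.0189).

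*Nrp2* rose on restimulation of iTregs, where *Nrp1* fell. In resting iTregs it lay between 7.06 and 14.4 normalized counts, below the 38.1 to 57.1 of resting tTregs. It passed the filter of that fit only through tTreg libraries, so that this test is not given. None of the other tested receptors was called between resting iTregs and resting tTregs, beside 63.4% of all genes. The rise of *Nrp2* on restimulation was 1.72 (SE 0.31, adjusted p = 7.34e-04), to between 30.2 and 48.1 normalized counts. With either inhibitor it was lower than in restimulation alone, by -1.17 with the ORAI inhibitor (SE 0.31, adjusted p = 0.0299) and -1.68 with CsA (SE 0.31, adjusted p = 0.00368). *Plxnb2* rose on restimulation by 0.52 (SE 0.18, adjusted p = 0.0370), just past the fold threshold, and was lower with CsA by -0.96 (SE 0.18, adjusted p = 0.00366). With the ORAI inhibitor *Plxnb2* was not called, with a mean of 69.0 normalized counts beside 84.1 in restimulation alone.

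**Figure D4:**
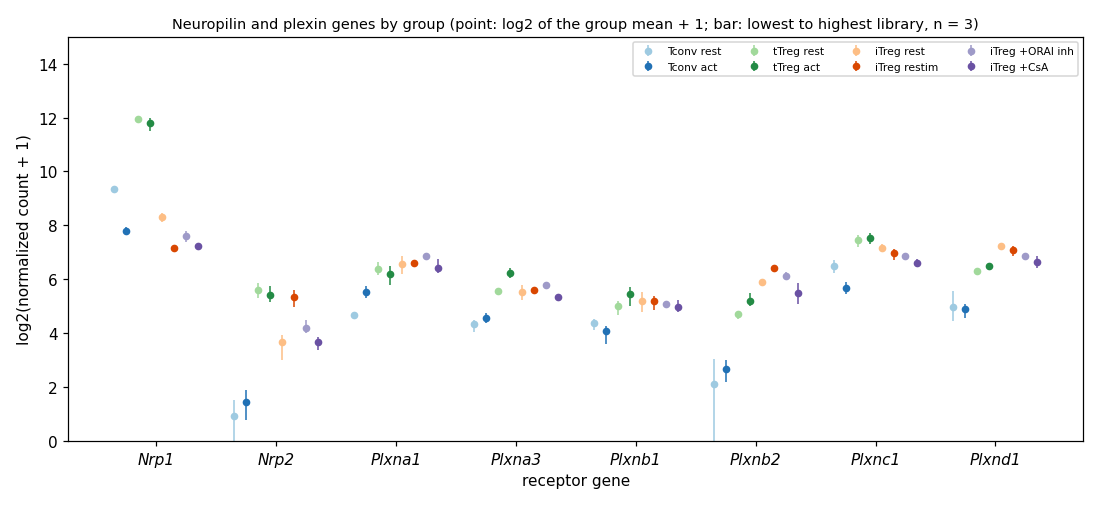
Levels of *Nrp1*, *Nrp2* and 6 plexin genes (horizontal axis) as log2(normalized count + 1) (vertical axis) in the 8 groups (colours). Points are the group means and bars reach from the lowest to the highest library (n = 3); Tconvs are the lowest groups for *Nrp2* and *Plxnb2*, and restimulated iTregs are the lowest group for *Nrp1*.

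Of 15 other semaphorins, only 3 passed the filter in the Tconv, tTreg and resting iTreg libraries, *Sema3d*, *Sema4f* and *Sema6b*, and 3 in the iTreg libraries, where *Sema6a* took the place of *Sema3d*. *Sema4f*, a further class 4 semaphorin, was the most abundant. It averaged 97.0 ± 5.00 normalized counts (SD, n = 3) in resting Tconvs, 34.4 ± 5.11 in resting tTregs and 339 ± 8.39 in resting iTregs. It was lower in tTregs than in Tconvs by -1.48 (SE 0.14, adjusted p = 6.56e-07), as *Sema4a* was, but it rose on restimulation of iTregs by 0.90 (SE 0.08, adjusted p = 8.21e-07) where *Sema4a* fell. It was lower with the ORAI inhibitor (-0.75, SE 0.08, adjusted p = 3.31e-05) and with CsA (-0.53, SE 0.08, adjusted p = 7.06e-04) than in restimulation alone. *Sema6a* had no reads in any Tconv or tTreg library. It lay between 3.16 and 6.07 normalized counts in resting iTregs and between 10.1 and 24.7 in restimulated ones. Only through the restimulated libraries, where it was high, did it pass the filter, so that its test on restimulation is not given.

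The ligands and partners of *Nrp1* that are not semaphorins were a list of 11, of which 7 were tested. The TGF-β receptor genes *Tgfbr1* and *Tgfbr2*, whose products associate with neuropilin-1, fell on restimulation of iTregs, by 0.75 (SE 0.10, adjusted p = 7.44e-05) and 0.59 (SE 0.09, adjusted p = 1.41e-04), the only 2 of the 7 called, beside 12.8% of all genes called in either direction and 6.13% called lower. *Tgfbr2* also fell on activation of Tconvs, by 1.72 (SE 0.09, adjusted p = 2.97e-10), from between 2416 and 2437 to between 712 and 750 normalized counts, and tTregs differed in this response by 1.38 (SE 0.12, adjusted p = 6.42e-07). *Vegfa* and *Pgf*, which encode ligands of neuropilin-1, had no reads in resting Tconvs and averaged 27.9 and 27.6 in resting iTregs, at least 9.82-fold and 9.69-fold higher. *Pgf* was higher with the ORAI inhibitor than in restimulation alone by 0.95 (SE 0.16, adjusted p = 0.00195). Neither *Tgfbr1* nor *Tgfbr2* was called with either inhibitor against restimulation alone. *Tgfbr1* averaged 317 in restimulated iTregs, 382 with the ORAI inhibitor and 342 with CsA. For *Tgfbr2* these means were 251, 317 and 307.

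Of 4 receptors of class 4 and 7 semaphorins that are not plexins, *Cd72* and *Itgb1* were tested. *Cd72*, a receptor of Sema4D, fell on activation by 0.96 in Tconvs (SE 0.19, adjusted p = 4.64e-04) and 0.84 in tTregs (SE 0.19, adjusted p = 0.00376). *Itgb1*, the β1 integrin chain, fell by 0.98 in Tconvs (SE 0.07, adjusted p = 1.05e-08). Of 19 genes that carry plexin signals inside the cell, 18 were tested. On activation of Tconvs 3 rose and 7 fell, on activation of tTregs 2 rose and 1 fell, and on restimulation of iTregs 1 rose and 4 fell, beside 50.2%, 21.9% and 12.8% of all genes called in either direction. *Arhgef11*, an exchange factor for small GTPases that binds plexin B, fell in all 3 settings, by 2.56 in Tconvs (SE 0.17, adjusted p = 9.82e-09), 0.75 in tTregs (SE 0.17, adjusted p = 0.00456) and 1.16 in iTregs (SE 0.24, adjusted p = 0.00210). *Rhod*, a small GTPase, fell by 3.76 in activated Tconvs (SE 0.46, adjusted p = 4.46e-06), and tTregs differed in this response by 3.66 (SE 0.64, adjusted p = 4.19e-04).

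The patterns of the 6 tested genes over the 8 group means were compared by Pearson correlation on the log2 scale, as a description, since the groups share size factors and culture history. *Nrp1* and *Sema4a* had a correlation of -0.94, *Sema4d* and *Sema7a* 0.95 and *Sema4b* and *Plxnd1* -0.80. Over 11725 genes, those most like *Nrp1* were *March3*, *Mphosph9* and *Zfp202* (each 0.991). Of these, *March3* averaged between 2.17 and 8.10 normalized counts outside tTregs, near the value of 3 reads. *Zfp202* averaged between 8.73 and 22.8 over the groups. Those most like *Sema4a* were *Ywhab* (0.996), *Ppp1r2* (0.992) and *Bicdl1* (0.990). *Sema4b* was most like *Mtif2* (0.984), *Bzw2* (0.981) and *H2-T24* (0.961), and *Sema4d* was much like *Eif4ebp1* (0.995) and *Paqr4* (0.992). *Sema7a* was most like *Lta* (0.998), the gene of lymphotoxin α, followed by *Cdca7l* and *Msto1* (0.993 each). *Plxnd1* was most like *Gas2l3* (0.988), *Wdr78* (0.987) and *Bcam* (0.978).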

How the data were processed

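RNA-seq libraries had been made with a modified SMART-seq2 protocol, with 22 cycles of amplification and no strand information. Per the labels and the paper, the authors trimmed reads with cutadapt 1.18, aligned them to GRCm38 (mm10) with STAR 2.5.3 counted them on GENCODE genes with RSEM 1.3.0 and used DESeq2 1.26 for differential expression. The values the authors deposited are a signal of gene counts divided by a size factor for each of 24 libraries, called normalized counts here; the tool behind the size factors is not given in the sources used here. Reads were recovered from the smallest step between values of a library, and 100% of values then came out whole within 0.01. Amplified reads are not independent molecules, so that floors cover counting error only. The chromatin samples of the series were not analysed here.

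A gene entered a fit if 3 or more of its libraries reached 10 normalized counts, and was tested with limma 3.58.1 (R 4.3.3, trend in the prior variance) on log2(normalized count + 1), a scale that understates the change of low genes. One fit held the 15 libraries of Tconvs, tTregs and resting iTregs (11495 genes), another the 12 iTreg libraries (11105) and the last all 24 (11725), for restimulated iTregs against other cells and for the order of levels. Alternatives were a pseudocount of 0.1 or 5, quantile normalization, other size factors, a filter of 100 or none, other libraries in the fit, a replicate block, each library left out, the adjusted p alone, a log2 threshold of 1, and edgeR 4.0.16 and DESeq2 1.42.0 on recovered reads. The scripts were tested on simulated reads. The genes and lists were chosen with earlier results of these data known. Named were the 7 genes, up to 2 called genes of each list and comparison with the largest difference, of which some are printed, the 3 genes most like each of those tested, *Foxp3* and marker genes; some genes under this rule are not reported here. Positions and exon lengths came from GENCODE vM21, an older release than the one the paper names, and promoters from RefSeq. Figures were drawn with matplotlib 3.10.9.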

Additional observations from a re-analysis of the deposited data

Results flagged for a closer look

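The activation response differed between tTregs and Tconvs, by the interaction term of the limma fit, for 3 of the 6 tested genes. The tTreg response minus the Tconv response was 1.37 for *Nrp1* (SE 0.17, adjusted p = 2.06e-05), -2.17 for *Sema4b* (SE 0.14, adjusted p = 2.33e-08) and -6.08 for *Sema7a* (SE 0.56, adjusted p = 1.01e-06). *Sema4b* moved in opposite directions with no overlap of libraries in either cell type. *Nrp1* fell in Tconvs and *Sema7a* rose in them, while neither was called in tTregs. The size for *Sema7a* depends on the pseudocount, since resting Tconvs had no reads. These comparisons rest on the tTreg libraries, which were shallow and among the least alike, and each call held in every alternative run, leaving out each library in turn included. The groups of 3 libraries were too small to test for outlying libraries.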

How the results depend on the processing

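Of 1847 recomputed differences of the 6 tested genes, 1790 kept their side of the thresholds, 46 lost and 11 gained the call. None of the called differences reversed, while 27 of the 1790, which stayed uncalled, changed sign. With a log2 threshold of 1, the number of genes called went from 5 to 3 for activation of Tconvs, from 2 to 0 for tTregs, from 6 to 3 for resting iTregs against resting tTregs, from 2 to 1 for restimulation, from 2 to 0 for the ORAI inhibitor against resting iTregs and from 3 to 1 for CsA against resting iTregs. With the adjusted p alone it went from 0 to 2 for the ORAI inhibitor and from 0 to 1 for CsA, both against restimulation alone. For activation of tTregs it was 1 with quantile normalization, a pseudocount of 5, edgeR, DESeq2 or a fit of only those groups. Leaving out a library gave 3 to 4 for activation of Tconvs, 1 to 2 for tTregs, 0 to 1 for either inhibitor against restimulation alone and 1 to 2 for the ORAI inhibitor against resting iTregs. The cause was not tested. With replicate number as a block, the count was the same in all 16 comparisons, for example 5 for activation of Tconvs and 2 for restimulation. Same-numbered libraries were not treated as pairs in the main fits. The lowest correlation between their deviations from their group means was 0.0452 for restimulation and -0.425 for activation of tTregs. The mean was 0.16 and -0.268, beside -0.0796 and 0.132 for libraries with different numbers. Whether the iTreg libraries were paired is not known from these values. The depth limits what can be said of *Sema4c*, and of *Sema7a* in tTregs.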
